A study of Mus musculus with 8 samples.

Results

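The mast cell genes described here are 10 genes that mark mast cells and, for several of them, their relatives the basophils: the granule proteases Cpa3, Cma1, Mcpt4, Mcpt8 and Tpsb2, the IgE receptor chains Ms4a2 and Fcer1a, the growth factor receptor Kit, the histamine-forming enzyme Hdc and the transcription factor Gata2. They were chosen by gene name, and every probe that carries one of the names on the array was taken. The array held 13 probes for these 10 genes among 41174 probes in all. Of the 10 genes 9 were found by the name in the files, and Tpsb2 was found through its RefSeq accession because the array lists it under the older name Mcpt6. Of the members 8 passed the filter on dim probes and were tested among 18410 genes. Mcpt8 and Ms4a2 did not pass it.

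RNA came from pancreatic lymph nodes, the nodes that drain the pancreas, of BALB/c mice. Each of the 8 microarrays of 2 colours compared 1 Deaf1 knockout mouse, labelled with Cy5, with a pool of wild-type BALB/c littermates of the same age, labelled with Cy3. Deaf1 is a transcription factor, and the labels do not say which part of the gene was deleted, in which cells, or by what construct. There were 2 knockout mice of 4 weeks set against a pool of 2 wild-type mice, 3 knockout mice of 12 weeks against a pool of 3, and 3 knockout mice of 30 weeks against a pool of 3. That the arrays of an age share 1 pool is an assumption, the dyes were never swapped, and no wild-type mouse was measured alone, so the spread between wild-type mice and any dye bias of a probe are not in the tests. Each value is the log2 of the knockout signal over that of its pool, after background correction and loess normalisation, and is negative where the knockout was lower. Fitted ratios are given ± the standard error of a limma fit over all 8 arrays, and a gene is called where its Benjamini-Hochberg adjusted p over all genes tested is under 0.05.

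Mast cells are tissue-resident granulocytes that arise from bone marrow progenitors and mature in connective tissue and at mucosal surfaces. They carry IgE on the receptor FcεRI, depend on Kit and its ligand, stem cell factor, for survival, and store histamine, heparin-type proteoglycan and proteases in granules that are released on activation. In lymph nodes they lie mainly around the sinuses, the capsule and the surrounding connective tissue, and they are a small share of node cells. Cma1, Mcpt4 and Tpsb2 are typical of connective tissue mast cells, whereas Mcpt8 marks basophils, and Fcer1a, Ms4a2, Hdc and Gata2 are shared with basophils and Kit and Gata2 with blood progenitors. In whole nodes, fewer cells of a type and less RNA per cell cannot be told apart.

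The probe sequences are shown for the proteases because the findings on Cma1 and Mcpt4 rest on which probe is read. The probes have 60 bases. The Cma1 probe that stands for the gene lies at chr14:54895688-54895747 in mm8, the build of the 4-week files, on the minus strand, and its first 30 bases are given. The second Cma1 probe is annotated over a span of 1060 bases at chr14:54896725-54897784, minus strand, so that it crosses an intron, and is given whole. The Mcpt8 probe, also given whole, covers a span of 375 bases at chr14:55037534-55037908, minus strand. The first 30 bases are given of the Mcpt4 probes at chr14:55013823-55013882 and chr14:55013815-55013846, both on the minus strand, and of the Tpsb2 probe at chr17:25095113-25095172 on the plus strand.
Cma1, probe of 60-base span: ataagatcttgagggagaattaactctgga
Cma1, probe of 1060-base span: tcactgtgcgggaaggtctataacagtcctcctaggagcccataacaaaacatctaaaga
Mcpt4, first probe: tgaaagatgaattctgtgatgatggactgt
Mcpt4, second probe: agtagtgaaaagcctgacctgcgtgcaatc
Mcpt8, probe of 375-base span: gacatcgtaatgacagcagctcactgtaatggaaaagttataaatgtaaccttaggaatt
Tpsb2, probe listed as Mcpt6: cggaagtaccacactggcctctacacggga

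The files of 4 weeks place both Mcpt4 probes at overlapping positions, yet the longest run of letters that the 2 probes share is 5 bases. The later files give the second one an accession whose current symbol is Cma2, a neighbouring chymase gene of the same family, so its signal cannot be assigned to Mcpt4 with certainty. The 2 Cma1 probes share no run longer than 5 bases and read separate stretches of the transcript.

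Gata2 belongs to the GATA factors, which bind GATA sites in promoters of mast cell genes, so the stretches of 250 bases before the start of transcription were read from RefSeq (GRCm38.p6) for the motif GATAA and its reverse complement TTATC. Of the 10 members 9 had such a window, and in 5 of these the first window held the motif. Over all 32851 windows of this length 22.6% held it. The windows of Cma1, Mcpt4 and Cpa3 are shown, with the motif in capitals, because these are the proteases compared most closely.
Cma1, chr14:55944676-55944925 (- strand): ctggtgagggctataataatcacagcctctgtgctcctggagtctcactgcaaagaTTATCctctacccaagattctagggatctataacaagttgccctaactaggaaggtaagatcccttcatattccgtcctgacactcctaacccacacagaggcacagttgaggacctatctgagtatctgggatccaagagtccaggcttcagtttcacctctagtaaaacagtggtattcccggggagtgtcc
Mcpt4, chr14:56062311-56062560 (- strand): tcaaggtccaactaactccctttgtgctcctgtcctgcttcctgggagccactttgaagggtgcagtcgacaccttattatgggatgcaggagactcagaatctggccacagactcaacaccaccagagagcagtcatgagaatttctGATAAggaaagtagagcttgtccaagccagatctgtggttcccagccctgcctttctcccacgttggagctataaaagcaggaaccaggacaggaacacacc
Cpa3, chr3:20242182-20242431 (- strand): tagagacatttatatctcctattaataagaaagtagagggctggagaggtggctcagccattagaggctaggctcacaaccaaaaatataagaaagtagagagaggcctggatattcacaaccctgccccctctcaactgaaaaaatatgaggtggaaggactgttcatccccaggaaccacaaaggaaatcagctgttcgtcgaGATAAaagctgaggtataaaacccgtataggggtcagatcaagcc

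Ms4a2 had 3 matches in its window, which is the most among the members, and Fcer1a had 1. The first windows of Kit, Hdc, Gata2 and Mcpt8 had none. These are matches of letters and do not show binding.

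The arrays were checked before the members were read. The scanner software marked 46.8% to 71.4% of probes as well above background in the knockout channel and 37.2% to 62.6% in the wild-type channel, with the lowest shares on replicate 2 of 4 weeks. The brightest Deaf1 probe did not show a loss in the knockout channel: its ratios were −0.22 and −0.12 at 4 weeks, 0.34, 0.35 and 0.32 at 12 weeks and 0.14, 0.00 and 0.15 at 30 weeks. A second Deaf1 probe that passed the filter had ratios of −0.29 and −0.10 at 4 weeks, 0.12, 0.15 and 0.18 at 12 weeks and −0.74, 3.11 and −0.62 at 30 weeks. On replicate 2 of 30 weeks its log2 level was 11.68 in the knockout channel, against 8.57 in the pool, and on the other 2 arrays of that age 7.43 and 7.66 in the knockout channel, against 8.17 and 8.28. Where the probes lie relative to the deleted part is not given, so they check nothing about the labels. Replicate 2 of 12 weeks stood apart, with a ratio of 5.32 for Xist and −3.89 for the Y-linked gene Ddx3y, and replicate 2 of 30 weeks had a median ratio of 4.00 over 10 acinar genes of the pancreas, against −4.21 and −4.54 on the other 2 arrays of that age. Over all genes, replicate 2 of 12 weeks correlated at 0.17 and 0.08 with the other arrays of its age, which correlated at 0.58 with each other, and replicate 2 of 30 weeks at 0.37 and 0.36, against 0.89. For the members, the calls at an age and several other ratios are given with and without these 2 arrays. For genes of the other lists they are not. The 4-week arrays were on a slide of their own and read with another software version, so age and slide cannot be told apart between 4 weeks and the later ages. The labels give no sex, and the sex-linked genes differed with age. At 12 weeks the log2 level of Xist, the RNA of the inactive X chromosome of females, was 7.31 and 7.88 in knockout replicates 1 and 3 and 12.93 in replicate 2, against 7.55 to 7.71 in the pool. At 4 and 30 weeks it was 13.16 to 13.87 in knockout nodes, against 12.42 to 13.12 in the pools, and Ddx3y was not well above background in either channel. The 12-week pool and replicates 1 and 3 thus read as male and all channels of 4 and 30 weeks as female, so that 12 weeks and sex cannot be told apart in any difference between ages that involves 12 weeks, and replicate 2 of 12 weeks was set against a pool of the other sex.

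Cma1, the connective tissue mast cell chymase, was lower in knockout nodes at 12 and 30 weeks and had the largest fitted change among the members tested at both ages. At 4 weeks its ratios were −0.14 and −0.37. At 12 weeks they were −0.62, −0.998 and −0.95, and at 30 weeks −0.55, −0.999 and −0.98, so that the ratio lay below 0 on 8 of 8 arrays and every array of the later ages lay below both arrays of 4 weeks. The log2 level was 8.0 and 7.44 in knockout nodes of 4 weeks, against 8.14 and 7.81 in the wild-type pool, and these ranges overlapped. At 12 weeks it was 6.93, 6.71 and 6.77 in knockout nodes, against 7.55, 7.71 and 7.72 in the pool. At 30 weeks it was 7.75, 7.07 and 7.24 in knockout nodes, against 8.29, 8.07 and 8.22 in the pool. In both later ages the knockout levels lay below those of the pool without overlap, and the probe was well above background in both channels on all 8 arrays. If the arrays of an age share 1 pool, as assumed, the pool's range holds no spread between wild-type mice.

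The fitted ratio of Cma1 was −0.26 ± 0.14 at 4 weeks (adjusted p = 0.223), −0.86 ± 0.11 at 12 weeks (adjusted p = 0.0219) and −0.84 ± 0.11 at 30 weeks (adjusted p = 0.00138), with intervals of 95% reaching −1.11 to −0.60 at 12 weeks and −1.10 to −0.59 at 30 weeks. This is 55.3% of the pool's level at 12 weeks and 55.7% at 30 weeks. The offset of 50 added in the background correction draws ratios of dim probes towards 0: an offset of 10 put Cma1 at 45.9% of the pool at 12 weeks and 48.0% at 30 weeks. The scanner's own log ratio, which also lacks the loess step used here, put it at 38.7% and 41.4%. Without both replicates 2, the ratio was −0.78 at 12 weeks (adjusted p = 0.0166) and −0.76 at 30 weeks (adjusted p = 0.00398). The call at 12 weeks is close to its threshold and was lost without replicate 1 or replicate 3 of that age (adjusted p = 0.0632 and 0.0581) or without replicate 3 of 30 weeks (adjusted p = 0.0516). On the slide that held the 12-week arrays and replicate 1 of 30 weeks, taken by itself, the ratio at 12 weeks was −0.86 with an adjusted p of 0.195, and the lone 30-week array gave −0.55 (adjusted p = 0.228, its spread taken from the 12-week arrays).

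The second Cma1 probe, across an intron, gave ratios of 0.02 and 0.17 at 4 weeks, −0.26, −0.49 and −0.52 at 12 weeks and −0.33, −0.61 and −0.61 at 30 weeks. It was lower in the knockout on all 6 arrays of the later ages and on neither array of 4 weeks. Fitted with all probes, it was −0.42 ± 0.08 at 12 weeks (adjusted p = 0.0386) and −0.52 ± 0.08 at 30 weeks (adjusted p = 0.00201). It was a dim probe, well above background in 6 knockout and 7 wild-type channels. In the fit of all probes, the difference of its ratio between 30 and 4 weeks was −0.61 ± 0.13 (adjusted p = 0.0148). For the first probe this difference was −0.59 ± 0.18, with an adjusted p of 0.0476 in the fit of all probes. In the fit of 1 probe per gene its adjusted p was 0.0514. Between 12 and 4 weeks the first probe differed by −0.60 ± 0.18 (adjusted p = 0.0821 in the fit of 1 probe per gene).

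**Figure D1:**
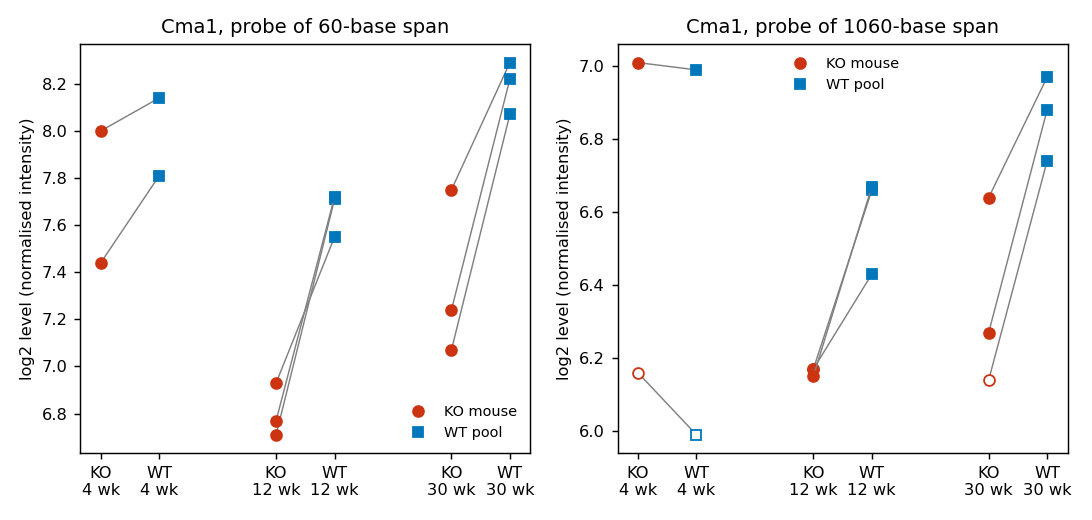
Normalised log2 level of Cma1 (vertical axis) by its 2 probes, in knockout mice (red circles) and in the wild-type pool on the same array (blue squares) at 4, 12 and 30 weeks. Grey lines join the channels of an array and open symbols were not well above background; for the first probe the knockout levels at 12 weeks lie between 6.71 and 6.93, below the pool's 7.55 to 7.72.

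Tpsb2, a tryptase stored in the same granules, was lower in knockout nodes by a small amount. Its ratios were −0.21 and −0.13 at 4 weeks, −0.18, −0.23 and −0.10 at 12 weeks and −0.20, −0.38 and −0.28 at 30 weeks, below 0 on 8 of 8 arrays. Its probe passed the filter on dim probes only through the wild-type pool of 30 weeks, where it was well above background on 3 of 3 arrays, against 2 of 3 in knockout nodes. The filter thus used the side on which it is high, and its values at 30 weeks are not independent of it. The fit called it at 30 weeks (−0.29 ± 0.06, adjusted p = 0.00754), but not at 4 weeks (−0.17 ± 0.08, adjusted p = 0.139) or 12 weeks (−0.17 ± 0.06, adjusted p = 0.138). At 30 weeks its log2 level was 6.33, 6.17 and 6.30 in knockout nodes, against 6.52, 6.55 and 6.58 in the pool. These did not overlap, but a range of 1 shared pool holds no spread between wild-type mice. The probe was dim, well above background in 4 knockout and 4 wild-type channels of 8 each and in neither channel at 4 weeks, so the size of its ratio depends on the background correction. With an offset of 10 the ratio at 30 weeks was −0.56, which is 67.7% of the pool's level against 82.0% with the offset of 50. The scanner's own log ratio, which also lacks the loess step used here, was −1.57, or 33.7%. Without both replicates 2 the fitted ratio was −0.24 (adjusted p = 0.0479).

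Over the members tested, 0 of 8 were called at 4 weeks, 1 was lower at 12 weeks (Cma1) and 2 were lower at 30 weeks (Cma1 and Tpsb2), and none was called higher at any age. The call of Tpsb2 is of a probe kept by the pool's signal at that age. With the filter on all 8 arrays it was not tested and the count at 30 weeks was 1. Without any filter on dim probes its adjusted p was 0.00643 by limma. Fcer1a was called higher at 30 weeks under 6 of the alternatives tried, which overlap. The scanner's log ratio and the series matrix gave the same ratio, as did leaving out replicate 2 of 30 weeks alone or both replicates 2. Of all genes tested 22.7% were called at 4 weeks, 2.61% at 12 weeks and 39.1% at 30 weeks. The shares called lower were 7.38%, 1.37% and 18.4% in the same order of age, and those called higher 15.3%, 1.23% and 20.7%. In the mean of the ages, where 44.1% of all genes were called (18.7% lower and 25.4% higher), Cma1 (−0.65 ± 0.07, adjusted p = 0.00044) and Tpsb2 (−0.21 ± 0.04, adjusted p = 0.00321) were the members called. At 30 weeks, 2 of 8 members called lower is near the share over all genes. The median ratio of the 8 members was 0.08, −0.07 and −0.09 at 4, 12 and 30 weeks, beside 0.02, 0.02 and 0.03 over all genes tested. None of the 8 was called in the differences between ages by limma, where 6.98% of all genes were called for 12 minus 4 weeks, 0.777% for 30 minus 12 weeks and 18.8% for 30 minus 4 weeks. At 4 weeks, 0 of the 8 were below an unadjusted threshold of 0.05 in the limma fit, and Tpsb2 came nearest to it. At an unadjusted p under 0.05, Cma1 and Cpa3 differed between 12 and 4 weeks, Cma1 and Kit between 30 and 4 weeks, and no member between 30 and 12 weeks.

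**Figure D2:**
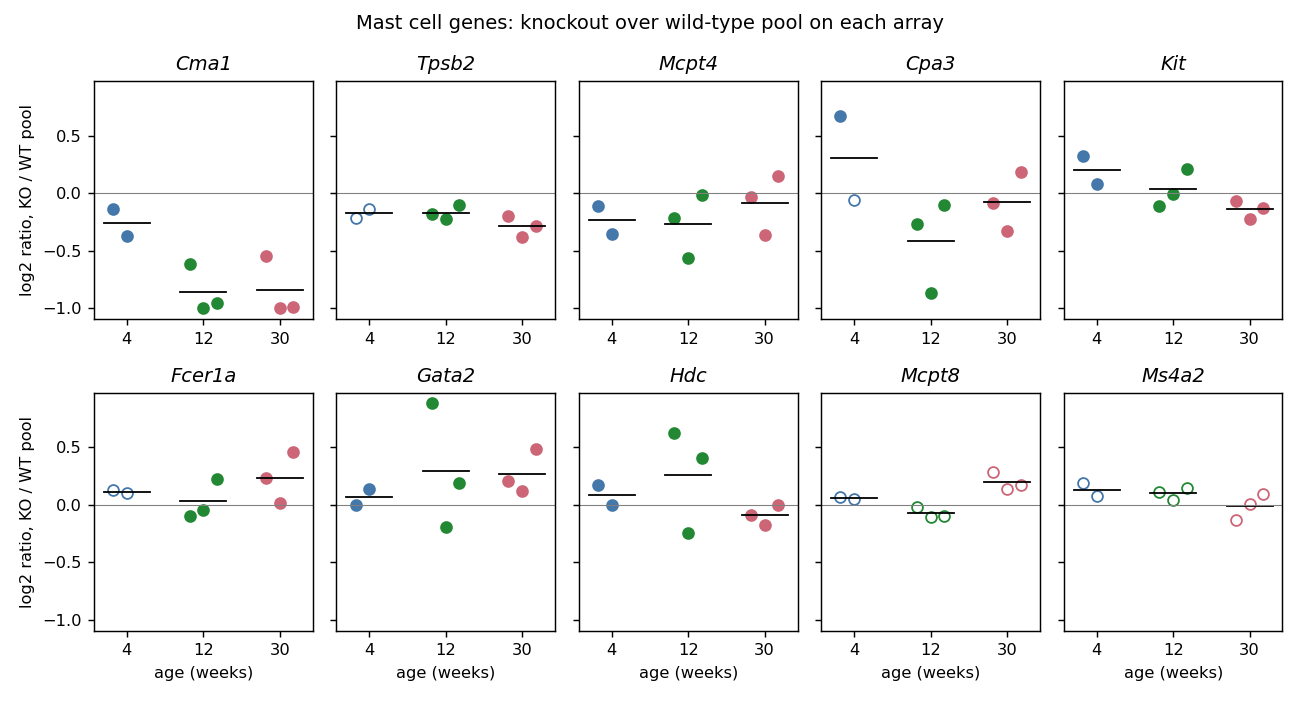
Log2 ratio of knockout over wild-type pool (vertical axis) on each array for the 10 mast cell genes at 4, 12 and 30 weeks (horizontal axis), with 1 point per array and a bar at the mean of an age. Open points lay near background in both channels; Cma1 reaches −0.998 at 12 weeks and −0.999 at 30 weeks while Mcpt8 and Ms4a2 have open points throughout.

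Mcpt4, the other connective tissue chymase among the members, did not pass the test with the probe that stands for it. Its ratios were −0.11 and −0.36 at 4 weeks, −0.22, −0.56 and −0.02 at 12 weeks and −0.03, −0.37 and 0.15 at 30 weeks, below 0 on 7 of 8 arrays. The fitted ratios were −0.23 ± 0.15, −0.27 ± 0.12 and −0.08 ± 0.12 at 4, 12 and 30 weeks, with adjusted p of 0.31, 0.219 and 0.634. Without both replicates 2 the ratio was −0.12 at 12 weeks and 0.06 at 30 weeks. The second probe, whose gene may be Cma2, was below 0 on 8 of 8 arrays, with ratios of −0.33 and −0.11, then −0.37, −0.47 and −0.31, then −0.23, −0.62 and −0.32 at the 3 ages. Fitted with all probes it was −0.39 ± 0.09 at 30 weeks (adjusted p = 0.00775) and −0.38 ± 0.09 at 12 weeks (adjusted p = 0.0508). The 2 probes thus had different calls at 30 weeks, and whether their ratios differ from each other was not tested.

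Cpa3, carboxypeptidase A of mast cell granules, varied most among arrays. Its ratios were 0.67 and −0.06 at 4 weeks, −0.26, −0.87 and −0.10 at 12 weeks and −0.08, −0.33 and 0.19 at 30 weeks. The 2 mice of 4 weeks lay on opposite sides of 0, and at 12 and 30 weeks replicate 2 was the lowest. The fitted ratio at 12 weeks was −0.41 ± 0.18, with a 95% interval of −0.82 to 0.00 and an adjusted p of 0.191. Without both replicates 2 the ratio was −0.18 at 12 weeks, and at 30 weeks 0.05 in place of −0.08. Cma1 and Cpa3, which mast cells of connective tissue hold together, therefore had different calls. Whether their ratios differ from each other was not tested.

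Mcpt8, a protease of basophils, was not well above background in either channel on any array, and its ratios ran from −0.10 to 0.28. The same held for Ms4a2, the β chain of FcεRI, with ratios from −0.13 to 0.19. No level or fold is given for these 2 genes. Fcer1a, the chain of FcεRI that binds IgE, was not well above background at 4 weeks and was so in both channels on all 6 later arrays. Its ratios were 0.13 and 0.10 at 4 weeks, −0.09, −0.05 and 0.23 at 12 weeks and 0.23, 0.02 and 0.46 at 30 weeks. The fit gave 0.24 ± 0.10 at 30 weeks (adjusted p = 0.0829), which did not pass the test and whose 95% interval was 0.02 to 0.45. It was called without both replicates 2 (0.35, adjusted p = 0.0324), without replicate 2 of 30 weeks alone (0.35, adjusted p = 0.0401), with the scanner's own log ratio (0.77, adjusted p = 0.0345), with the series matrix (0.77, adjusted p = 0.0349), and with the slide (adjusted p = 0.0329) or the replicate number (adjusted p = 0.0374) as a block.

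Kit, the receptor of stem cell factor, is printed in 10 spots on each array, and the spread of its log2 ratio over these spots (SD) was 0.04 to 0.08. Its ratios were 0.32 and 0.08 at 4 weeks, −0.11, −0.01 and 0.21 at 12 weeks and −0.07, −0.22 and −0.13 at 30 weeks. The SD between mice was 0.17, 0.16 and 0.08 at 4, 12 and 30 weeks. At 30 weeks it was 0.077, above the SD over spots on the arrays of that age (0.053, 0.05 and 0.058). The ratio of a mouse is a mean over its spots, so these spreads are not of the same kind. The fitted ratios were 0.20 ± 0.10, 0.03 ± 0.08 and −0.14 ± 0.08 (adjusted p = 0.186, 0.828 and 0.206), and the difference of 30 minus 4 weeks was −0.34 ± 0.13 (adjusted p = 0.0993).

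Hdc, histidine decarboxylase, makes histamine, and Gata2 is a transcription factor needed for mast cell and basophil development. Hdc had ratios of 0.18 and 0.00 at 4 weeks, 0.62, −0.24 and 0.40 at 12 weeks and −0.09, −0.18 and 0.00 at 30 weeks. Gata2 had ratios of 0.00 and 0.14 at 4 weeks, 0.88, −0.19 and 0.19 at 12 weeks and 0.20, 0.12 and 0.49 at 30 weeks. In both genes replicate 1 of 12 weeks was the highest of all arrays and replicate 2 of that age the lowest. Neither passed the test at any age, with fitted ratios at 12 weeks of 0.26 ± 0.14 for Hdc (adjusted p = 0.281) and 0.29 ± 0.17 for Gata2 (adjusted p = 0.312). Without both replicates 2, the limma fit at 12 weeks gave 0.51 for Hdc (adjusted p = 0.0209) and 0.535 for Gata2 (adjusted p = 0.0616). The second Gata2 probe gave 0.65, −0.24 and 0.01 on the 12-week arrays.

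**Figure D3:**
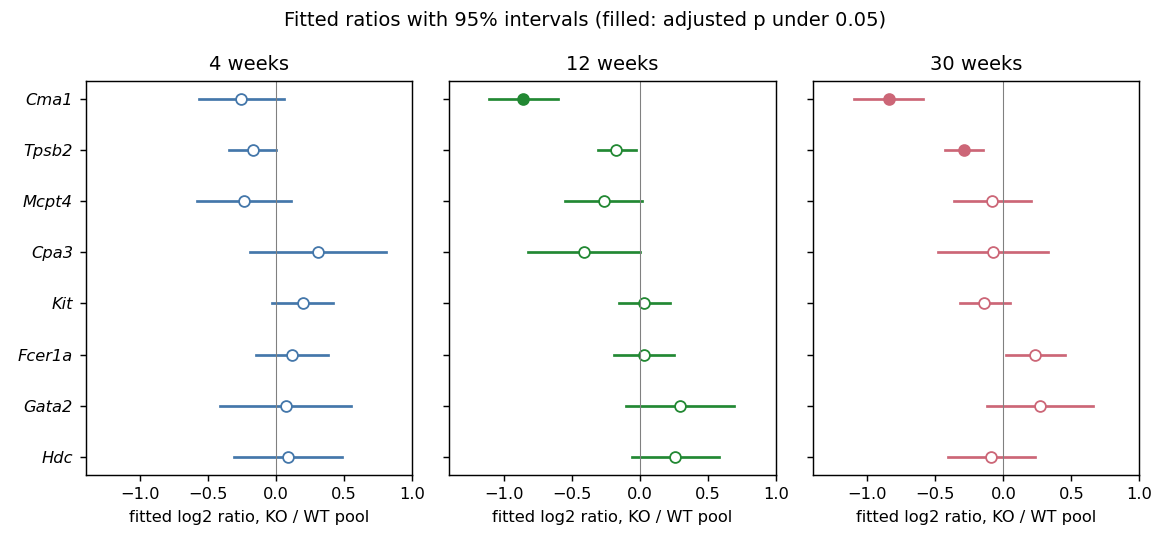
Fitted log2 ratio of knockout over wild-type pool (horizontal axis) with its 95% interval for the 8 members tested at each age, filled where the adjusted p was under 0.05. The filled points are Cma1 at 12 and 30 weeks and Tpsb2 at 30 weeks.

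The mean ratio of the 8 members by array was 0.10 and −0.07 at 4 weeks, 0.00, −0.39 and −0.02 at 12 weeks and −0.07, −0.29 and −0.01 at 30 weeks. It was lowest on the replicates 2 of 12 and 30 weeks, which also stood apart over all genes. Names of the form of an accession or clone were left out of a search for genes outside the members that followed this mean. The 5 that followed it most closely over the 8 arrays were St3gal5 (Pearson's r 0.968), Esco1 (0.961), Zbtb11 (0.959), Lcor (0.959) and Kif20b (0.939). They were picked as the highest among the tested genes that remained and had a value on every array. The 8 arrays share their pools within an age, and the values are a description.

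Cma1 lies in a row of protease genes on chromosome 14, and the probes of its neighbours, chosen after their values were seen, are given beside it. Mcpt1, a mucosal mast cell protease 78.5 kb from the Cma1 probe in mm8, had fitted ratios of 0.05, 0.33 and 0.31 at 4, 12 and 30 weeks and was not called (adjusted p = 0.883, 0.211 and 0.145). Ctsg, cathepsin G of neutrophils and mast cells, had −0.35, −0.68 and 0.02 (adjusted p = 0.249, 0.0629 and 0.94). Gzmb, granzyme B of cytotoxic lymphocytes, had 0.19, 0.63 and 0.15 (adjusted p = 0.675, 0.127 and 0.625). Gzmd, a related granzyme, was called lower at 30 weeks (−0.42, adjusted p = 0.00545).

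Of 24 other mast cell genes 23 were on the array and 13 were tested, of which 1 was called higher at 4 weeks, none at 12 weeks (3 at an unadjusted p under 0.05), and 2 higher and 1 lower at 30 weeks. Over all genes tested, 15.3%, 1.23% and 20.7% were called higher at 4, 12 and 30 weeks, and 7.38%, 1.37% and 18.4% lower. The counts of the lists that follow stand beside these shares too, and whether a list departs from them was not tested. The median ratio of the 13 other mast cell genes was 0.07, 0.13 and 0.11 at 4, 12 and 30 weeks, beside the 0.02, 0.02 and 0.03 of all genes. Srgn, the core protein that holds granule proteases and that other white blood cells also make, rose at 4 weeks (1.01 ± 0.12, adjusted p = 0.00134) and 30 weeks (0.45 ± 0.10, adjusted p = 0.0093). Its ratios were 1.10 and 0.93 at 4 weeks, 0.53, 0.22 and 0.06 at 12 weeks and 0.63, 0.28 and 0.43 at 30 weeks, above 0 on every array. Mitf, a transcription factor of mast cells and melanocytes, was 0.28 ± 0.09 at 30 weeks (adjusted p = 0.0385), and Cd63, a granule membrane protein, fell (−0.30 ± 0.10, adjusted p = 0.0356).

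Of the genes that signal below FcεRI 15 were tested, with 4 higher and 2 lower at 4 weeks, 1 higher at 12 weeks, and 2 higher and 6 lower at 30 weeks, and medians of 0.17, −0.08 and −0.06. With the smallest p at 4 weeks, Prkcb (0.58 ± 0.08, adjusted p = 0.00222) and Plcg2 (0.37 ± 0.08, adjusted p = 0.0131) rose and Pik3cd fell (−0.49 ± 0.08, adjusted p = 0.00468). The falls at 30 weeks with the smallest p were in Vav1 (−0.69 ± 0.10), Lat2 (−0.79 ± 0.12) and Syk (−0.44 ± 0.07), with adjusted p of 0.00152, 0.00177 and 0.0019. These genes act in B and T cells as well. Of all genes tested, 15.3% were called higher and 7.38% lower at 4 weeks, and 20.7% and 18.4% at 30 weeks. Among 11 genes of Kit signalling, 1 was higher and 1 lower at 4 weeks, none was called at 12 weeks (5 at an unadjusted p under 0.05), and 4 were higher and 3 lower at 30 weeks, with medians of 0.17, −0.10 and −0.02. Ptpn11, a phosphatase that carries the signal forward, rose at 30 weeks (0.45 ± 0.07, adjusted p = 0.00242). Ptpn6, a phosphatase that dampens it, fell (−0.56 ± 0.09, adjusted p = 0.00234), as did the kinase subunit Pik3r1 (−0.60 ± 0.10, adjusted p = 0.00268). Kitl, stem cell factor itself, rose at 30 weeks, with ratios of 0.74, 0.62 and 0.70 and a fit of 0.69 ± 0.13 (adjusted p = 0.00412). Its ratios were 0.70 and 0.26 at 4 weeks and 0.62, −0.04 and 0.42 at 12 weeks, and a second, dimmer Kitl probe gave 0.25, 0.14 and 0.19 at 30 weeks.

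Of 6 cytokines and receptors that act on mast cells, Il33, an alarmin of stromal cells, rose at 4 weeks (0.84 ± 0.13, adjusted p = 0.0038) and 30 weeks (0.50 ± 0.11, adjusted p = 0.00746). Il18 rose at 4 weeks (0.46 ± 0.10, adjusted p = 0.0126), and Il9r fell at 30 weeks (−0.23 ± 0.08, adjusted p = 0.0421). None of 5 histamine receptor, transport and breakdown genes was called at any age (1, 0 and 0 at an unadjusted p under 0.05 at 4, 12 and 30 weeks). Of 10 genes of prostaglandin and leukotriene synthesis, Alox5 (0.65 ± 0.20, adjusted p = 0.0471) and Pla2g4a (0.63 ± 0.13, adjusted p = 0.00992) rose at 4 weeks, and Lta4h fell at 30 weeks (−0.39 ± 0.09, adjusted p = 0.00849).

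Genes of other cell types that share mast cell markers or sit beside mast cells were read on the same arrays. For comparison with the counts of these lists, 22.7%, 2.61% and 39.1% of all genes were called at 4, 12 and 30 weeks. Of 7 basophil genes, 3 were higher and 1 lower at 4 weeks, 1 lower at 12 weeks, and 2 higher and 1 lower at 30 weeks, with medians of 0.19, −0.06 and −0.04. Il18r1 rose at 4 weeks (0.705 ± 0.097, adjusted p = 0.00228) and 30 weeks (0.39 ± 0.079, adjusted p = 0.00603), and Csf2rb2 at 4 weeks (0.516 ± 0.105, adjusted p = 0.0105). Cebpa, also a gene of fat and other myeloid cells, fell at all 3 ages by its brighter probe (−0.51, −0.53 and −0.44, adjusted p = 0.0137, 0.0342 and 0.00673). A dimmer Cebpa probe gave −0.01 and 0.06 at 4 weeks, not well above background, −0.54, −0.41 and −0.35 at 12 weeks and −0.35, −0.32 and −0.30 at 30 weeks. Prss34 and Cd200r3, which are nearer to basophil markers, were not called. Of 5 eosinophil genes, none was called at 4 weeks, 1 was lower at 12 weeks and 3 at 30 weeks, with medians of 0.30, −0.18 and −0.47. Prg2, the major basic protein of eosinophil granules, had ratios of 0.26 and −0.06 at 4 weeks, −1.11, −1.08 and −1.28 at 12 weeks and −1.12, −0.77 and −0.88 at 30 weeks, and was called at 12 weeks (−1.16 ± 0.09, adjusted p = 0.00321) and 30 weeks (−0.92 ± 0.09, adjusted p = 0.000795).

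Connective tissue around a node holds fat cells and fibroblasts as well as mast cells. The median ratio of 10 adipocyte genes was −1.52 and −0.58 at 4 weeks, −1.47, −1.30 and −0.04 at 12 weeks and −0.04, −0.37 and 0.44 at 30 weeks. The log2 of their summed level ran at 12 weeks from 14.48 to 15.79 in knockout nodes, against 15.62 to 15.76 in the pool, and at 30 weeks from 14.81 to 15.72, against 15.16 to 15.19. Of these 10 genes 2 were called lower at 4 weeks, 1 at 12 weeks (9 at an unadjusted p under 0.05) and none at 30 weeks (0 at an unadjusted p under 0.05). On the same arrays Cma1 was at −0.14 and −0.37 at 4 weeks, −0.62, −0.998 and −0.95 at 12 weeks and −0.55, −0.999 and −0.98 at 30 weeks. The median of 8 fibroblast genes was 0.98 and 0.63 at 4 weeks, −0.17, 0.12 and 0.20 at 12 weeks and 0.28, 0.01 and 0.22 at 30 weeks, with 5 called higher at 4 weeks, 1 at 12 weeks, and 2 higher and 1 lower at 30 weeks. The median of 8 neutrophil genes was −0.01 and −0.20, then −1.06, −2.13 and 0.41, then −0.31, −0.09 and −0.09. The part of these differences in cell content in the ratios of the mast cell genes was not tested.

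Of 7 progenitor genes 1 was lower at 4 weeks, none was called at 12 weeks and 2 were lower at 30 weeks, among them Lmo2 (−1.22 ± 0.12, adjusted p = 0.000795). Of 6 lymphatic endothelial genes 4 were higher at 4 weeks and 1 lower at 30 weeks. Of 3 melanocyte genes 2 were lower at 4 weeks. None of the 10 acinar genes was called at any age, and none had an unadjusted p under 0.05.

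**Figure D4:**
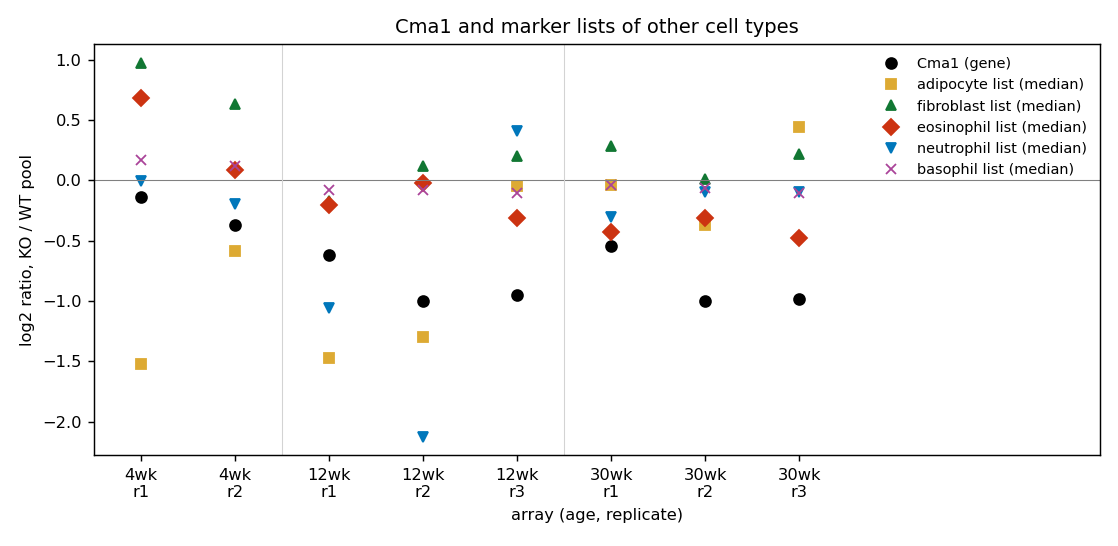
Log2 ratio of knockout over wild-type pool (vertical axis) on each array (horizontal axis) for Cma1 and for the median of the marker lists of adipocytes, fibroblasts, eosinophils, neutrophils and basophils. On replicate 1 of 12 weeks Cma1 is at −0.62, the adipocyte median at −1.47 and the eosinophil median at −0.20. On replicate 3 of 12 weeks Cma1 is at −0.95, the adipocyte median at −0.04 and the eosinophil median at −0.31.

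The calls of Cma1 and Tpsb2 were set against other ways of processing the arrays. Cma1 ran from −1.37 to −0.64 at 12 weeks and from −1.27 to −0.55 at 30 weeks, and Tpsb2 at 30 weeks from −1.57 to −0.20, all below 0.

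**Figure D5:**
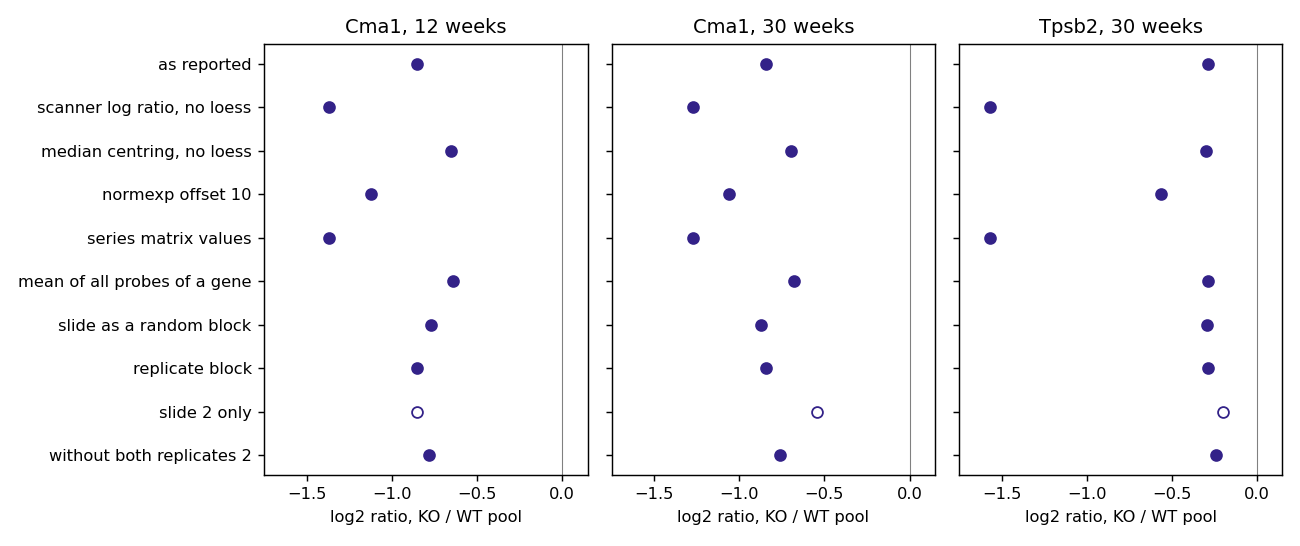
Log2 ratio of knockout over wild-type pool (horizontal axis) of Cma1 at 12 and 30 weeks and Tpsb2 at 30 weeks under 10 settings, filled where the adjusted p was under 0.05. All points lie below 0, and the open ones are the slide that holds the 12-week arrays taken by itself.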

How the data were processed

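Pancreatic lymph node RNA of 8 Deaf1 knockout mice (Cy5) was set against wild-type pools (Cy3) on Agilent arrays of 2 colours. Per the file headers, Agilent Feature Extraction 9.5.3.1 (4 weeks) or 10.2.1.3 (12 and 30 weeks) wrote the scanner output, which gives the raw and the processed intensity of each spot in both dyes. Per the file headers, it also gives the log10 ratio of Cy5 over Cy3 and flags for outlier spots and for signal over background. The authors' deposited series matrix was found, by comparison with that output, to be an uncentred log2 ratio of the processed signals.

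Raw mean signals were background-corrected in limma 3.58.1 (R 4.3.3) by normexp with an offset of 50, followed by loess within each array, control spots having weight 0. Outlier spots were left out and spots of a probe averaged. Probes were tested if some age had all its arrays well above background in the same channel (27464 of 41174), and the brightest probe stood for a gene (18410 genes). The model held a mean for each age over all 8 arrays, and 7 contrasts were tested against 0, two-sided, after a check on simulated data. Precision is limited by the number of arrays. Among the tested genes 27 values were missing.

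Named are all members, up to 3 called genes of each other list with the smallest p in a contrast, Deaf1, and the 5 genes most like the members. Those 5 were taken after names of the form of an accession or clone were left out. Ctsg, Gzmb, Gzmd, Mcpt1, Xist, Ddx3y, Prss34 and Cd200r3 were named after their values were seen. The members and lists were chosen with earlier results of these data known. Probes were named by accession (24375), symbol (6301) or synonym (2426) through RefSeq (GRCm38.p6, for names and promoters), and 8072 kept the file's name. Alternatives covered the background correction, normalisation, filter, choice of probe, slide, replicate number and each array left out.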

Additional observations from a re-analysis of the deposited data

Results flagged for a closer look

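The knockout effect differed between ages, by a test of the difference itself, for both probes of Cma1 and for genes of the lists beside it. These differences are limma fits, adjusted over all probes or genes tested, and set the later age against 4 weeks, which was on a slide of its own. They differ between pools as well as between ages, and those of 12 minus 4 weeks also between sexes: by Xist and Ddx3y, the pool and 2 of 3 knockout mice of 12 weeks read as male and all channels of 4 weeks as female. In the fit of all probes, the Cma1 probe across an intron differed by −0.61 for 30 minus 4 weeks (adjusted p = 0.0148). The first Cma1 probe differed by −0.59 in that fit (adjusted p = 0.0476). It was not called in the fit of 1 probe per gene (adjusted p = 0.0514). The genes named below are not all that were called. For 12 minus 4 and 30 minus 4 weeks, 5 and 6 of 8 fibroblast genes and 2 and 3 of 6 lymphatic endothelial genes were called lower. In each, 1 of 3 melanocyte genes was called higher. Of all genes tested, 6.98% were called for 12 minus 4 weeks and 18.8% for 30 minus 4 weeks.

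Among eosinophil genes, Prg2 differed by −1.26 for 12 minus 4 weeks and −1.02 for 30 minus 4 weeks, Alox15 by −0.89 and Il5ra by −0.77 for 30 minus 4 weeks. Among basophil genes, Il18r1 differed by −0.72 and Csf2rb2 by −0.57 for 12 minus 4 weeks and Csf2rb by −0.55 for 30 minus 4 weeks. Srgn differed by −0.74 for 12 minus 4 weeks and −0.56 for 30 minus 4 weeks, and Il18 by −0.43 for 30 minus 4 weeks.

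Of the genes below FcεRI, Btk differed by −1.07 for 30 minus 4 weeks. Plcg2 differed by −0.46 for 12 minus 4 weeks and −0.49 for 30 minus 4 weeks, Prkcb by −0.68 and −0.54 in the same order, and Pik3cd by 0.49 for 12 minus 4 weeks. Of the Kit signalling genes, Pik3r1 differed by −0.78 and Ptpn6 by −0.56 for 30 minus 4 weeks.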

How the results depend on the processing

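Of 557 values of single members under the alternatives tried, 495 kept their direction and their side of the threshold, 39 kept their direction and came to pass it, 6 kept their direction and lost their call, and 17 changed sign, none of them called. Many of these values could not change direction. Leaving out an array of another age, dropping the dim filter or testing each probe by itself left a member's ratio at an age as it was. The scanner log ratio and the series matrix gave members the same ratios. The count of 495 is therefore no measure of robustness. The 6 lost calls were Cma1 at 12 weeks on slide 2 alone and without replicate 1 or 3 of 12 weeks or replicate 3 of 30 weeks, and Cma1 and Tpsb2 at 30 weeks on slide 2 alone. At 4 weeks, where no member was called, 1 was called with the scanner log ratio, offset 10, the series matrix or the replicate block, and 3 with median centring. At 12 weeks the count of 1 was 5 with median centring, 6 with slide as a random block, 0 on slide 2 alone and 2 without both replicates 2, and ran from 0 to 2 with each replicate left out. At 30 weeks the count of 2 was 1 with the filter on all 8 arrays, under which 5 members were tested, and 0 on slide 2 alone. It was 3 with the scanner log ratio, the series matrix, the slide block or the replicate block, and without replicate 2 of 30 weeks or both replicates 2, where the added call was Fcer1a, higher. It was also 3 without a filter on dim probes, where the added call was Mcpt8, higher, from a probe not well above background on any array. For the mean of ages the count of 2 was 5 with median centring, with the slide block or without both replicates 2, 1 with the stricter filter, and 2 to 4 with each replicate left out. For 12 minus 4 weeks the count of 0 was 2 with the slide block and up to 1 with a replicate left out. For 30 minus 4 weeks it was 1 with median centring, the stricter filter, the mean of probes or each probe tested by itself, 2 with the slide block, and 0 to 1 with a replicate left out. The slide block's estimated correlation was −0.26, below 0, which makes its p-values small. The cause of the other changes was not tested.

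With the replicate block, 4 members were called in the mean of ages and 1 each for 4 weeks, 12 minus 4 and 30 minus 4 weeks, where Cma1 was −0.53. The labels do not say that a number marks a shared animal or batch, and same-numbered arrays of 2 ages deviated together with correlations of −0.08 to 0.24, so the numbers were not taken to pair the samples.

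On slide 2 alone Cma1 was −0.86 at 12 weeks (adjusted p = 0.195) and −0.55 at 30 weeks, and Tpsb2 −0.20 at 30 weeks. With each replicate left out, Cma1 at 12 weeks ran from −0.98 to −0.78. Median centring raised the median of all genes to 0.49, 0.41 and 0.16 at 4, 12 and 30 weeks. Under it Cma1 (0.15), Mcpt4 (0.19) and Fcer1a (−0.029) changed sign at 4 weeks, Fcer1a (−0.044) at 12 weeks, Cpa3 (0.010), Mcpt4 (0.034), Kit (0.077) and Hdc (0.014) at 30 weeks, and Mcpt4 (0.037) in the mean. Without both replicates 2, an alternative chosen after seeing the data, Cpa3 (0.051) and Mcpt4 (0.060) changed sign at 30 weeks. With 1 replicate left out Cpa3 ran from −0.057 to 0.67 at 4 weeks and from −0.21 to 0.051 at 30 weeks, Gata2 from −0.001 to 0.14 at 4 weeks, Fcer1a from −0.07 to 0.091 and Kit from −0.056 to 0.10 at 12 weeks, and Mcpt4 from −0.20 to 0.060 at 30 weeks. Signal over background limits Tpsb2, Mcpt8, Ms4a2 and, at 4 weeks, Fcer1a.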
